A study of Mus musculus with 22 samples.

Results

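The subject is a set of 6 mouse genes, chosen by name out of 78298 genes counted. They are the chemokines Xcl1, Ccl3, Ccl4 and Ccl5, which natural killer (NK) cells make, and the receptors Xcr1 and Ccr1. The choice used no threshold on measured values, but it was made with earlier results of these data known. All 6 genes were found in both count tables. They were followed through 22 libraries of polyadenylated RNA in 9 groups. Primary NK cells from spleens of female and male mice were sequenced fresh and untreated or after 24 h with interleukin-2 (IL-2, a cytokine that activates NK cells). The IL-2 cultures held NK cells alone (monoculture) or together with cells of the murine pancreatic tumour line Panc02 (co-culture). Each of these 6 groups had 2 libraries, numbered 1 and 2 for female and 4 and 5 for male donors. Panc02 cultured alone had 2 libraries, and Panc02 allograft tumours came from 4 female and 4 male hosts, with a library each. The age and strain of the mice, and whether each library came from its own animal, are not in the labels used here. The p-values therefore reflect only how far these samples spread, which may be technical. The study set out to compare NK cells of female and male mice against this tumour line.

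Chemokines are small secreted proteins that guide leukocytes through G protein-coupled receptors. Xcl1 binds Xcr1, a receptor known for its restriction to the cross-presenting type 1 conventional dendritic cell (cDC1). Ccl3, Ccl4 and Ccl5 are inflammatory chemokines, and Ccl3 and Ccl5 bind Ccr1, a receptor of myeloid cells. NK cells that meet tumour cells are known to release these 4 ligands and thereby to draw dendritic cells and other leukocytes into tumours.

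In the build used for counting, GRCm39, Xcl1 lies on chromosome 1 (164759213 to 164763096, minus strand). The 3 Ccl genes share a stretch of chromosome 11. Ccl5 (83416604 to 83421344, minus strand) is followed after 117326 bases by Ccl3 (83538670 to 83540181, minus strand), and after a further 13229 bases by Ccl4 (83553410 to 83555509, plus strand). Both receptor genes are on the minus strand of chromosome 9, Xcr1 at 123681380 to 123691094 and Ccr1 at 123762161 to 123768729.

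The upstream sequences of Xcl1 and Ccl3 are shown because both transcripts increased together in culture. They come from RefSeq on another build, GRCm38.p6, and hold the 250 bases before the gene start, read 5′ to 3′ on the gene's strand. The table matched Xcl1, Ccl3, Xcr1 and Ccr1. Capitals mark the letters TGTGGT, the core read by RUNX factors, or GGTGTGA, a core read by T-box factors such as Tbx21 and Eomes, on either strand.
Xcl1, chr1:164935523-164935772, minus strand: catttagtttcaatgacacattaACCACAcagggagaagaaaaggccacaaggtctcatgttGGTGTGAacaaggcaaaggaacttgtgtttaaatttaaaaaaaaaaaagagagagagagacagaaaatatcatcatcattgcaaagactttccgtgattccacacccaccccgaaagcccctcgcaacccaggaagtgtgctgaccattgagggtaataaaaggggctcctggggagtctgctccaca
Ccl3, chr11:83649379-83649628, minus strand: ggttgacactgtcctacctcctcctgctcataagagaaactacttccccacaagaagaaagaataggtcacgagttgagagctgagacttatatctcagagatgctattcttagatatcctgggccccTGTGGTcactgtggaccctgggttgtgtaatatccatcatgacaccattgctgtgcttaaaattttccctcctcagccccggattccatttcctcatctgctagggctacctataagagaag

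Xcl1 held a RUNX core at -227 to -222 from the start, on the opposite strand, and a T-box core at -188 to -182, with no overlap. Ccl3 held a RUNX core at -122 to -117. Ccr1, which was not called in culture, also held a RUNX core, at -58 to -53 on the opposite strand, and Xcr1 held neither core. Of 32851 mouse promoter windows of this length, 14.0% held the RUNX letters and 3.33% the T-box letters. The searched letters of AP-1 (TGANTCA, in 6.75% of windows) and of the TATA box (TATAAA, in 12.4%) had no match on either strand in the Xcl1 and Ccl3 windows. A match is a description of letters and not a site in use.

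Library totals ranged from 13025549 to 46842646 counts. Levels across libraries are given in CPM (a gene's counts per 1000000 counts of the library), and levels of different genes are compared only in TPM, which also divides by transcript length. The cell labels were checked with 14 NK markers, which summed to between 10483 and 11967 CPM in fresh and 10017 and 11489 CPM in monocultured NK libraries. In cultured Panc02 they summed to 60.0 and 64.2 CPM, and 8 of the 14, among them the NK receptor Ncr1, were at 0. Fresh libraries also carried markers of other blood cells: 9 erythroid markers summed to between 792 and 1716 CPM there, against 227 to 435 CPM in monoculture. Changes were tested in edgeR (quasi-likelihood F-test) over all genes that passed the filter on low counts, and a gene is called where its Benjamini-Hochberg adjusted p is below 0.05.

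**Figure D1:**
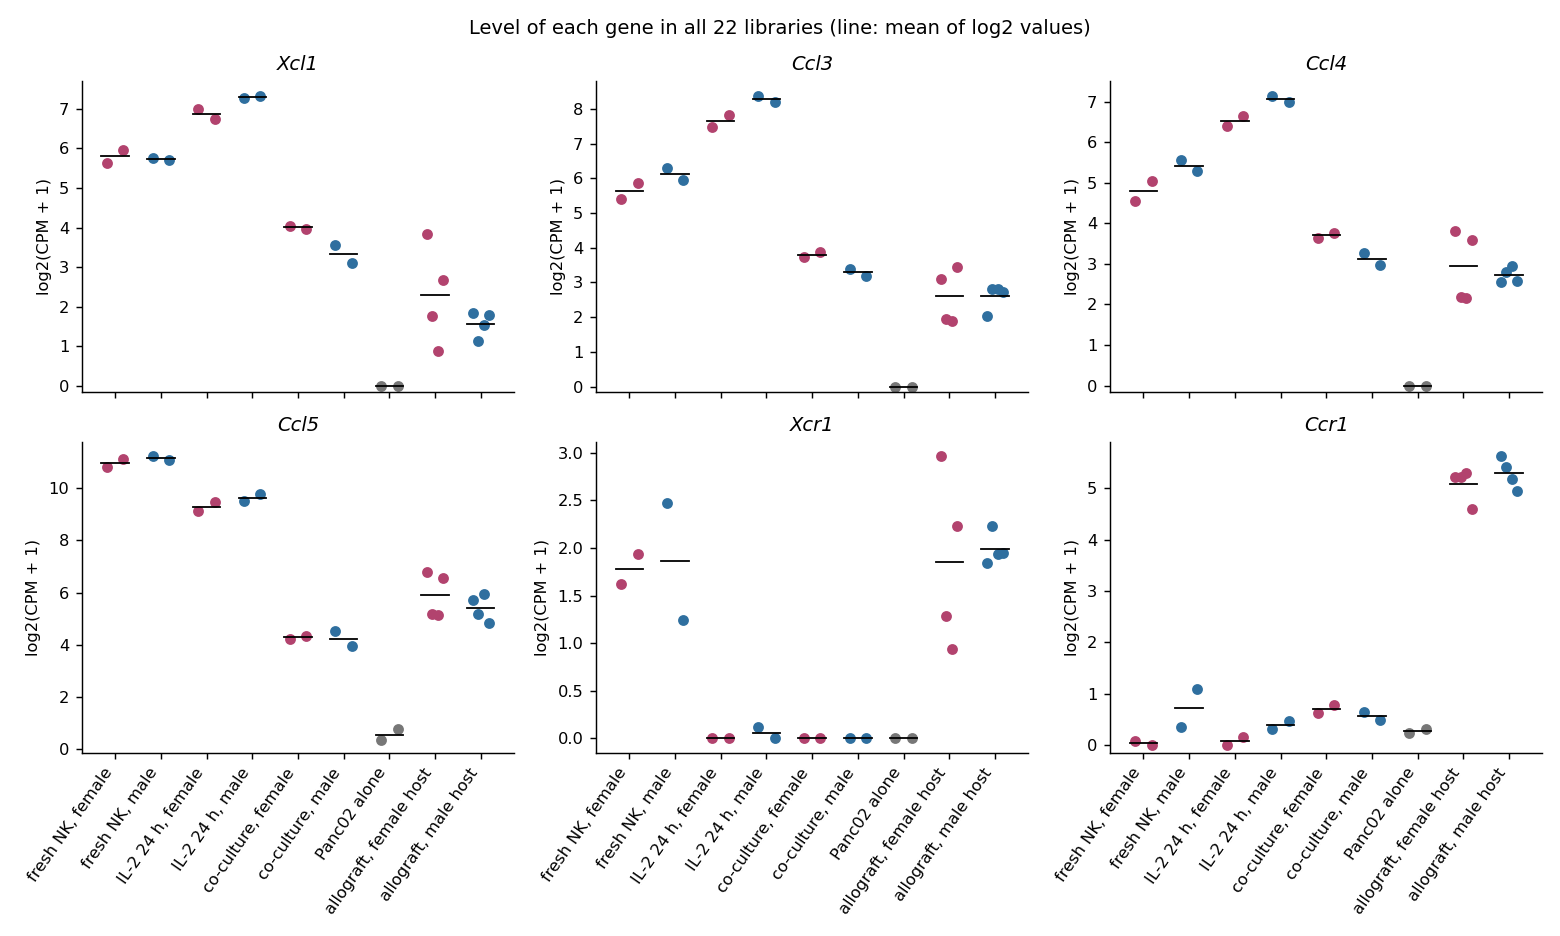
Level of the 6 genes in all 22 libraries, as log2(CPM + 1) on the vertical axis, with a point for each library and a line at the mean of each group. By whole-library CPM, Xcl1, Ccl3 and Ccl4 are highest in monoculture with IL-2 and Ccl5 in fresh NK cells. Ccr1 reaches 23.3 CPM or more only in allografts. Levels in co-culture follow the share of NK RNA in those libraries and are not adjusted for it here.

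Over 24 h with IL-2 the NK chemokines split. Xcl1, Ccl3 and Ccl4 rose, Ccl5 fell from a level far above theirs, and Xcr1 transcripts fell to a few reads. Of the 6 genes, 3 rose and 2 fell; over all 21414 genes tested, 43.2% were called, 22.1% higher and 21.1% lower, so a call by itself does not set these genes apart.

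Xcl1 measured 48.7 and 61.1 CPM in fresh female libraries and 53.2 and 51.7 CPM in fresh male ones. After culture it measured 127 and 106 CPM (female) and 155 and 161 CPM (male). Every cultured library lay above every fresh one, a log2 change of 1.44 ± 0.09 (SE; adjusted p = 2.36e-09), or 2.72-fold. Ccl3 measured 41.0 and 57.7 CPM (female) and 77.0 and 61.4 CPM (male) when fresh. In culture it stood at 176 and 224 CPM (female) and 333 and 293 CPM (male). It had the steepest increase of the 3, 2.22 ± 0.13 on the log2 scale (adjusted p = 1.45e-07), or 4.65-fold, with no overlap. Ccl4, its neighbour on chromosome 11, went from 22.3 and 31.9 CPM (female) and 45.8 and 38.4 CPM (male) to 82.9 and 99.2 CPM (female) and 141 and 127 CPM (male). This is a change of 1.83 ± 0.11 (adjusted p = 4.88e-09), or 3.55-fold, again without overlap.

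Ccl5, which resting NK cells are known to hold as a ready transcript, fell. It measured 1796 and 2266 CPM (female) and 2408 and 2153 CPM (male) in fresh NK cells. In culture it measured 559 and 709 CPM (female) and 737 and 871 CPM (male), so that all cultured libraries lay below all fresh ones. The change of -1.49 ± 0.14 (adjusted p = 4.35e-05) is a 2.80-fold fall. No call for these 4 chemokines was lost when any of the 12 NK libraries was left out. Fresh and cultured cells also differed in RNA extraction (oligo(dT) beads for sorted cells, phenol reagent for cell experiments, per the labels' protocols), and culture and extraction cannot be told apart. Platelet markers, 6 of 6 tested, fell as well, from between 290 and 543 to between 34.7 and 79.5 summed CPM; their part in the Ccl5 result was not tested.

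The mix of chemokine transcripts changed accordingly. By TPM, Ccl5 made up between 90.2% and 91.2% of the summed transcripts of the 4 chemokines in fresh NK cells and between 44.9% and 53.3% in monoculture. The sum itself was 6904 TPM (mean, n = 2) in fresh female and 8040 TPM in fresh male cells. In monoculture it was 3874 and 5163 TPM. In fresh female cells the order by mean TPM was Ccl5 at 6279 ± 1021 (SD, n = 2), Xcl1 at 312 ± 49.6, Ccl3 at 191 ± 45.6 and Ccl4 at 122 ± 30.2. In female monoculture Ccl3 stood second at 791 ± 159, ahead of Xcl1 at 670 ± 63.0, a gap smaller than their spread. In male monoculture Ccl3 at 1206 ± 122 stood ahead of Xcl1 at 890 ± 11.2, a gap larger than their spread.

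**Figure D2:**
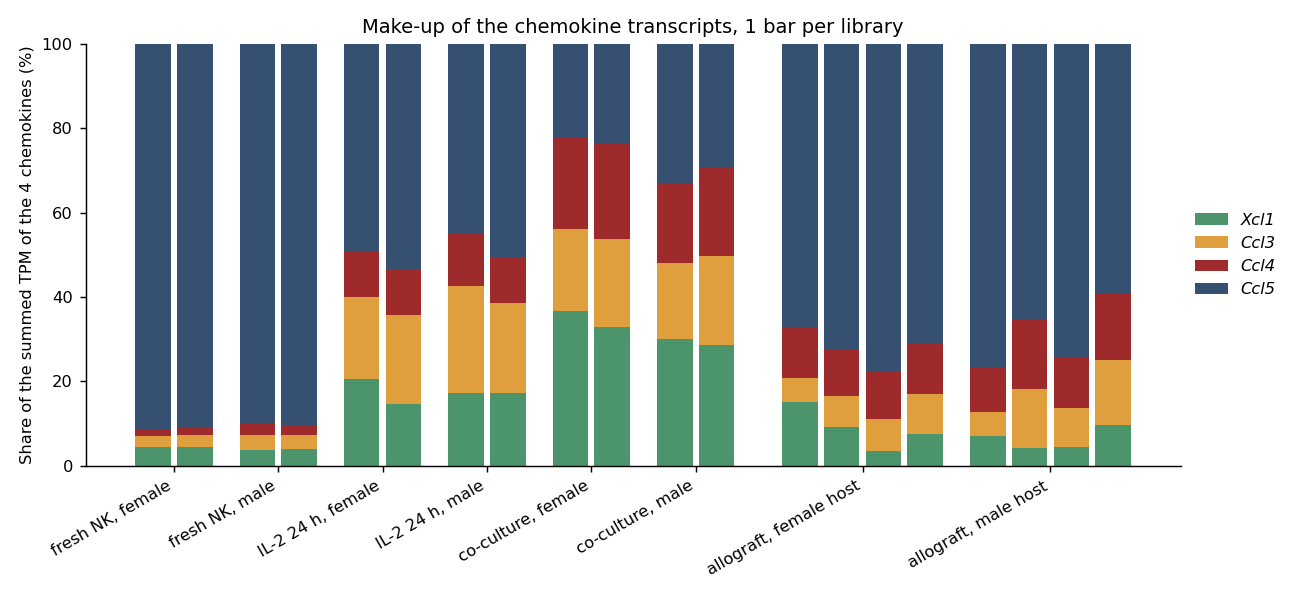
Share of each chemokine in the summed TPM of Xcl1, Ccl3, Ccl4 and Ccl5 (vertical axis, percent), with a bar for each library. Ccl5 takes over 90% in fresh NK cells, between 44.9% and 53.3% in monoculture and between 22.4% and 32.9% in co-culture, where Xcl1 leads in the female libraries, and between 59.2% and 77.6% in allografts.

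The receptor Xcr1 was present at a low level in fresh NK preparations, 2.08 and 2.84 CPM (female) and 4.55 and 1.37 CPM (male). After culture 4 reads were left in male library 4 and none in the other 3 libraries. Summed over libraries, 280 reads against 4 reads give an 87.5-fold higher share when fresh, with an exact 95% counting interval of 33.8 to 323. The fitted log2 change was -7.56 ± 0.95 (adjusted p = 1.90e-05). Of the 10 other cDC1 markers, 8 fell in the same comparison and 2 did not pass. Clec9a, a cDC1 receptor for dead cells, went from between 3.06 and 6.22 CPM to between 0 and 0.152 CPM. Wdfy4, needed for cross-presentation by cDC1, fell by 4.54 ± 0.21 on the log2 scale. The part of such cells in the Xcr1 reads of fresh libraries was not tested. Ccr1 had 2 (female) and 49 (male) reads in the fresh and 4 and 27 reads in the monocultured libraries and was not called (-0.09 ± 1.30, adjusted p = 0.997).

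Other genes of the system were counted from lists of related genes. Ackr1, a receptor that scavenges chemokines, fell from under 1 CPM. Among 18 genes of chemokine receptor signalling 11 rose and 5 fell. Rgs16, a brake on G protein signalling, rose from 1.43 ± 0.29 to 41.9 ± 2.30 CPM (SD, n = 2) in female cells. Its log2 change over both sexes was 4.66 ± 0.17, and the related Rgs1 rose by 1.50 ± 0.16.

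All 6 NK cytokine genes that were tested rose with Xcl1, Ccl3 and Ccl4. Tnf, the inflammatory cytokine, rose by 2.41 ± 0.20 on the log2 scale, and Lta, its close relative, by 2.63 ± 0.25. Ifng, the macrophage-activating cytokine, rose by 1.22 ± 0.11, and Flt3l, the growth factor of dendritic cells, by 1.55 ± 0.11. Il10, the seventh of the list, was too low to test. Of 12 transcriptional or RNA regulators of these genes, 6 rose and 3 fell. The 2 T-box factors of NK cells parted. Tbx21 fell by 1.30 on the log2 scale (SE 0.06), and Eomes rose by 1.03 ± 0.06. Runx3 rose by 0.24 ± 0.06.

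The genes whose log2(CPM + 1) tracked each chemokine best over the 8 fresh and monocultured libraries were ranked among 10962 genes. These libraries fall into a fresh and a cultured set, which alone gives high values, so r serves only to rank and has no p. Ccl3 and Ccl4 were in each other's first 2 places (r = 0.996), and both had S100a11, a calcium-binding protein, and Apmap among their 5 closest genes. Gm14648, Rpl23, Gm10240 and Rpl5-ps1 were among the closest genes of Xcl1. Those of Ccl5 were Rhno1, Pon3, Plxna1, Nfia and Fbxo3. No chemokine other than Ccl3 and Ccl4 stood in another's 5 closest.

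The study's question, whether NK cells of the sexes differ, was then put to the 4 chemokines. In fresh cells Ccl4 was lower in female libraries (22.3 and 31.9 CPM) than in male ones (45.8 and 38.4 CPM), a log2 difference of -0.68 ± 0.16 (adjusted p = 0.0151). Ccl4 and Ccr1 were the 2 members of 6 that were called, both lower in female cells. Of all genes 10.0% were called, 4.42% higher and 5.61% lower. The higher share of these calls, 44.1%, was 18.2% without a filter, 26.8% with halved counts and 19.4% without female monoculture 2. The Ccl4 call was lost without fresh female library 1 (adjusted p = 0.16) or fresh male library 4 (adjusted p = 0.103). Ccl3 lay lower in female cells with no overlap, by -0.53 ± 0.18, and did not pass (adjusted p = 0.0964); it passed with DESeq2 (adjusted p = 0.00936). Xcl1 (0.04 ± 0.13) and Ccl5 (-0.19 ± 0.19) showed no called difference. Their 95% intervals, -0.24 to 0.31 and -0.64 to 0.26, hold differences either way.

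Ccr1 rested on 2 reads in the fresh female and 49 in the fresh male libraries, 42 of them in male library 5. The ratio of male to female is 18.9, with an exact 95% counting interval of 4.95 to 160, and the fitted difference was -4.08 ± 1.21 (adjusted p = 0.0424). The call was lost in 7 of the 12 fits that left out a library; without fresh male library 5 the difference was -2.70 (adjusted p = 0.376). Of 12 neutrophil markers, 2 of 12 tested were called lower in female cells. Their summed level was 25.5 and 80.8 CPM in fresh female and 187 and 523 CPM in fresh male libraries, highest in male library 5. Neutrophils carry Ccr1, and their part in this difference was not tested.

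After 24 h with IL-2, none of the 4 chemokines passed the test between the sexes with edgeR. Their means were lower in female than in male cells, and with 2 libraries in a group this order carries little weight by itself. Ccl3 averaged 200 ± 34.1 CPM (SD, n = 2) in female and 313 ± 27.8 CPM in male cells, a log2 difference of -0.67 ± 0.17 (adjusted p = 0.343). For Ccl4 the means were 91.1 ± 11.5 and 134 ± 9.93 CPM (-0.58 ± 0.15, adjusted p = 0.294). Xcl1 averaged 116 ± 14.7 and 158 ± 3.97 CPM (-0.47 ± 0.12, adjusted p = 0.295). Ccl5 averaged 634 ± 106 and 804 ± 94.8 CPM (-0.37 ± 0.20, adjusted p = 0.788). In this comparison 0.107% of all genes passed, 0.056% higher and 0.0514% lower in female cells. Unadjusted p-values were below 0.05 for Xcl1 (0.00153), Ccl3 (0.00254) and Ccl4 (0.00143). DESeq2 called Ccl3 (adjusted p = 0.0256) and no other member, and without a filter on low counts edgeR called Xcl1, Ccl3 and Ccl4.

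Whether the response to culture itself differed between the sexes was tested as an interaction. None of the 6 genes was called by edgeR or by DESeq2, against 2.55% of all genes. Only Xcl1 had an unadjusted p below 0.05 (0.0115; -0.51 ± 0.18, adjusted p = 0.149). Its female libraries rose less than its male ones.

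**Figure D3:**
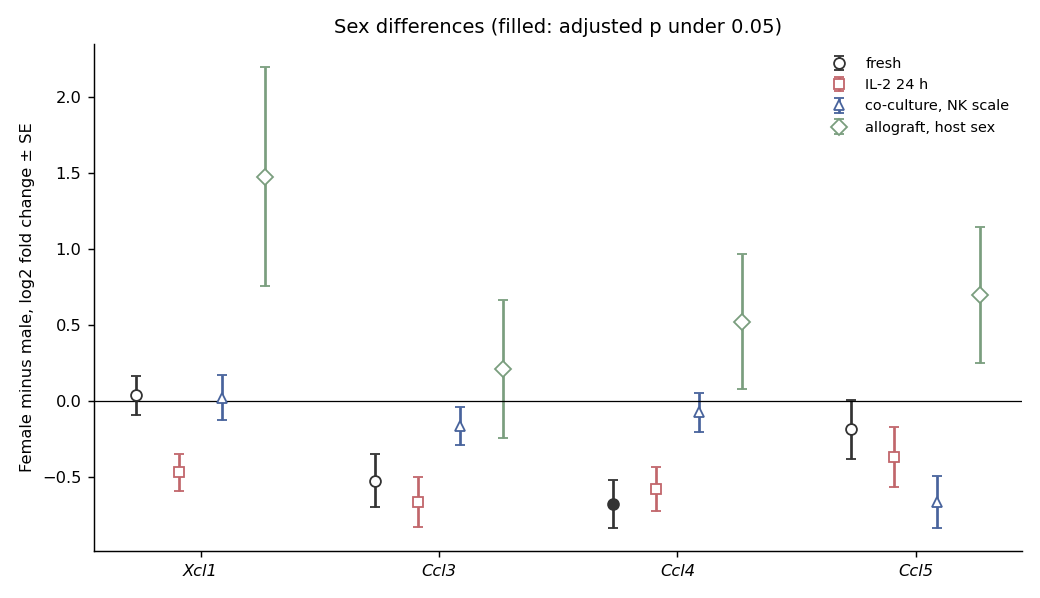
Female minus male log2 fold change with its SE (vertical axis) for the 4 chemokines in fresh cells, in monoculture, in co-culture on the NK scale and between allograft hosts. Only Ccl4 in fresh cells is filled, with an adjusted p of 0.0151; the allograft values are all above 0 and have the widest errors.

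Co-culture libraries mix RNA of both cell types, so raw levels there follow the share of NK RNA. The labels name both cell types and leave unsaid whether they were separated. The NK share was measured with 346 NK-restricted genes other than the members: genes at 20 CPM or more in monoculture and at no more than 0.1% of that level in each cultured Panc02 library. Their median level, relative to monoculture of the same sex, was 2.78% and 3.40% in the female and 2.05% and 1.74% in the male co-cultures. Fewer NK cells and less RNA per NK cell cannot be told apart. Xcl1, Ccl3 and Ccl4 had no read in cultured Panc02, and Ccl5 had 0.256 and 0.688 CPM, so the 4 chemokines met the restriction. Ccl5 met it narrowly, at 0.0958% in the higher Panc02 library. The restriction rests on Panc02 cultured alone, so it cannot exclude transcripts that Panc02 makes only in co-culture. Their part in the co-culture levels below was not tested.

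Measured against this NK share, Xcl1 and Ccl4 were higher in co-culture, Ccl3 was higher by a smaller amount, and Ccl5 showed no called change. Xcl1 measured 15.6 and 14.5 CPM in female and 10.8 and 7.55 CPM in male co-cultures. That is 13.4% and 12.5% of female and 6.85% and 4.79% of male monoculture, above the NK share in each of the 4 libraries. Relative to the NK-restricted genes the log2 difference was 1.84 ± 0.10 (adjusted p = 1.30e-09), or 3.57-fold. Ccl4 measured 11.5 and 12.6 CPM (female) and 8.70 and 6.90 CPM (male). It reached between 5.16% and 13.9% of monoculture, a difference of 1.86 ± 0.09 (adjusted p = 1.33e-11), or 3.62-fold. Ccl3 measured 12.2 and 13.6 CPM (female) and 9.52 and 8.10 CPM (male), between 2.59% and 6.78% of monoculture. Its difference was 0.81 ± 0.08 (adjusted p = 2.73e-07), or 1.76-fold.

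Ccl5 measured 17.5 and 19.3 CPM (female) and 21.8 and 14.3 CPM (male), or 2.76%, 3.05%, 2.71% and 1.77% of monoculture. These values were 0.995, 0.896, 1.32 and 1.02 times the NK share of the same library. Its difference was 0.07 ± 0.12 (adjusted p = 0.706; 95% interval -0.20 to 0.33). The sign depended on the scale, with -0.22 where the NK markers set it and -0.23 where Xist and Ddx3y, the sex-specific transcripts of the donors, did. Of the 4 members on this scale 3 were called, against 45.4% of its 350 genes, 24.3% higher and 21.1% lower. Under the NK markers the split of calls was 26.0% higher in place of 53.5%, and under Xist and Ddx3y 26.7%. The NK marker scale sums all 14 markers, also those with reads in Panc02. They summed to 60.0 and 64.2 CPM in Panc02 alone. In co-culture they summed to 344 and 431 CPM (female) and 274 and 256 CPM (male). The part of this Panc02 background in the shifts under the NK markers was not tested. Xcl1, Ccl3 and Ccl4 were called higher under all 9 alternatives besides those leaving out a library, with differences of 1.54 to 1.85, 0.52 to 0.83 and 1.57 to 1.87. By TPM, which needs no NK scale, Ccl5 fell to between 22.4% and 32.9% of the 4-chemokine sum in co-culture, and Xcl1 made up 28.7% to 36.6%.

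**Figure D4:**
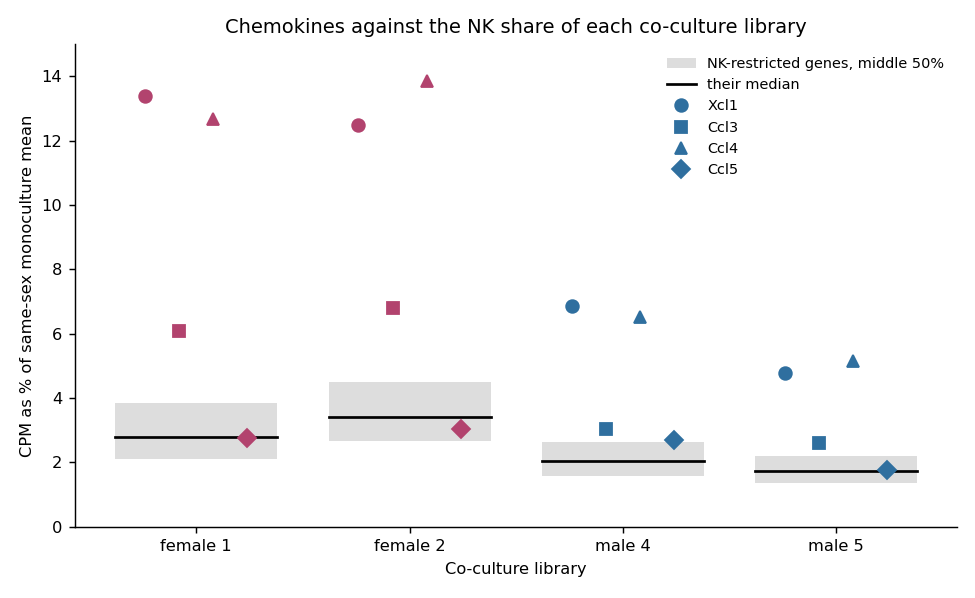
Chemokine level in each co-culture library as a percentage of the same-sex monoculture mean (vertical axis), with the median and middle 50% of the 346 NK-restricted genes as line and grey band. Xcl1 and Ccl4 lie above the band in all 4 libraries, with 4.79% as the lowest Xcl1 value, and Ccl5 lies at or inside it except in male library 4 at 2.71%.

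Among the other listed genes on the NK scale, the cytokine Ifng was higher in co-culture by 1.11 ± 0.14 (adjusted p = 4.45e-06), and Ltb did not pass (-0.39 ± 0.17, adjusted p = 0.0657). Of 8 signalling genes on this scale, 3 were higher, with Rgs16 at 0.81 ± 0.16, and 3 lower. Of 10 NK markers on this scale 1 was called higher and 2 lower. Prf1, the pore-forming protein of NK granules, was higher by 1.27 ± 0.07, and the receptors Klrb1c (-0.31 ± 0.07) and Klri2 (-0.35 ± 0.07) were lower.

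No chemokine was called between the sexes in co-culture. On the NK scale Xcl1 stood at 494 ± 94.3 (SD, n = 2) in female and 480 ± 64.8 scaled CPM in male libraries, and Ccl3 at 419 ± 27.7 and 464 ± 1.47. Ccl4 stood at 393 ± 31.2 and 410 ± 19.4. Ccl5 was lower in both female libraries, at 599 ± 44.2 against 939 ± 170 scaled CPM, a log2 difference of -0.67 ± 0.17 that edgeR did not call (adjusted p = 0.111, unadjusted p = 0.00448). DESeq2 called it (adjusted p = 0.00503), and so did edgeR without co-culture male library 5 (adjusted p = 0.0423) or without either female monoculture (0.0355 and 0.0419). On this scale 2.57% of genes were called, 0.857% higher and 1.71% lower in female cells. The sex-by-co-culture interaction was called for 0 of 350 genes by edgeR, with 23 genes at an unadjusted p below 0.05. Xcl1, Ccl3 and Ccl4 were among these 23, with unadjusted edgeR p-values of 0.0451, 0.0125 and 0.0171. For these 3 the interaction was 0.44 ± 0.20, 0.46 ± 0.16 and 0.46 ± 0.17 (adjusted p = 0.697, 0.582 and 0.582). For Ccl5 it was -0.34 ± 0.23 (adjusted p = 0.943). On the scale set by Xist and Ddx3y the first 3 were -0.022, -0.0035 and -0.0056, and Ccl5 was at -0.79 (adjusted p = 0.0691), still not called.

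Against Panc02 alone, the co-cultures carried all 4 chemokines, each called higher, where 18.3% of all genes were called, 12.2% higher and 6.12% lower. For these 4 genes the outcome was fixed in advance. They had already met the restriction, which asks for next to no reads in the same Panc02 libraries, so the calls only describe levels. With no read in Panc02, Xcl1 was at least 359-fold, Ccl3 at least 322-fold and Ccl4 at least 295-fold higher, counting 3 reads over the Panc02 group as the floor. These bounds scale with the Panc02 depth, and without Panc02 library 1 they were 170, 152 and 140. Ccl5 was 40.5-fold higher (log2 5.34 ± 0.32, adjusted p = 1.43e-06), 27.2-fold without Panc02 library 1 and 73.0-fold without library 2. Xcr1 had no read in any co-culture or Panc02 library. The floor of 3 reads over a group is 0.0327 CPM in female co-culture, 0.0375 CPM in male co-culture and 0.0337 CPM in Panc02. Ccr1 measured between 0.394 and 0.705 CPM in co-culture and 0.171 and 0.237 CPM in Panc02, a difference of 1.45 ± 0.59 that did not pass (adjusted p = 0.0967).

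In allografts all 6 genes were detected in every tumour and called higher than in cultured Panc02, a comparison in which 62.1% of all genes were called, 38.8% higher and 23.3% lower. The allograft libraries stand in a table of their own and were made from 500 ng RNA in place of 100 ng. Among the chemokines Ccl5 led, with 109, 35.1, 34.7 and 93.3 CPM in female hosts 1 to 4 and 51.9, 34.9, 59.8 and 27.3 CPM in male hosts 5 to 8. It exceeded Panc02 by 6.92 ± 0.85 on the log2 scale (adjusted p = 1.13e-04), by 6.36 without Panc02 library 1 and by 7.79 without library 2. Xcl1 measured 13.2, 2.39, 0.842 and 5.38 CPM in female and 2.57, 1.19, 1.90 and 2.45 CPM in male hosts, at least 111-fold above Panc02, or 70.8-fold without female tumour 1. Female tumour 1 was the highest of the 8 for Xcl1 and female tumour 3 the lowest.

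Ccl3 measured 7.56, 2.87, 2.72 and 9.95 CPM in female and 3.13, 6.01, 5.96 and 5.65 CPM in male hosts, at least 163-fold above Panc02. Ccl4 measured 13.0, 3.58, 3.48 and 11.0 CPM in female and 4.90, 5.92, 6.68 and 4.99 CPM in male hosts, at least 199-fold above. Female tumours 1 and 4 were the 2 highest for Ccl3, Ccl4 and Ccl5 alike. The 2 lowest for Ccl3 and Ccl4 were female tumours 2 and 3.

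Both receptors were detected as well. Xcr1 measured 6.81, 1.44, 0.918 and 3.69 CPM in female and 2.60, 3.68, 2.84 and 2.86 CPM in male hosts, at least 92.0-fold above Panc02. Without Panc02 library 1 or 2 the bounds of Xcl1, Ccl3, Ccl4 and Xcr1 ranged from 43.6-fold to 105-fold. Ccr1 measured 36.2, 36.1, 38.4 and 23.3 CPM in female and 48.0, 41.5, 35.3 and 29.8 CPM in male hosts. It exceeded Panc02 by 7.51 ± 0.35 (adjusted p = 7.16e-08), or 182-fold, and its highest 8 libraries of the 22 were the 8 allografts. Macrophage and monocyte markers, all 12 of 12 called higher, summed to between 3996 and 8294 CPM in allografts, against 24.3 and 25.6 CPM in Panc02. The 12 neutrophil markers summed to between 79.3 and 377 CPM there.

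All 6 of the listed other CC chemokine ligands were called higher in allografts. Ccl8, a monocyte chemoattractant, measured 318 ± 203 CPM (SD, n = 4) in female and 285 ± 60.8 CPM in male hosts, and was at 0 in every other library. Ccl6 measured 105 ± 67.8 and 119 ± 49.9 CPM, and Ccl9 102 ± 22.4 and 95.0 ± 43.6 CPM. Ccl7 measured 43.5 ± 19.8 and 36.1 ± 8.55 CPM. Of 7 NK cytokine genes 6 were higher in allografts, with Ifng at 1.35 ± 1.28 and 0.935 ± 0.276 CPM.

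Host sex gave no called member: 0 of 6 with edgeR, 0 of 6 with DESeq2, and 0 of 6 at an unadjusted p below 0.05, in a comparison where 0.0146% of all genes were called. Female minus male log2 differences were 1.48 ± 0.72 for Xcl1 (adjusted p = 0.372), 0.70 ± 0.45 for Ccl5, 0.52 ± 0.44 for Ccl4 and 0.21 ± 0.45 for Ccl3. They were 0.15 ± 0.55 for Xcr1 and -0.17 ± 0.18 for Ccr1. The host groups overlapped for all 6 genes, and the narrowest 95% interval was that of Ccr1 (-0.58 to 0.24) and the widest that of Xcl1 (-0.16 to 3.12), with -0.33 to 1.73 for Ccl5. Without female tumour 1 the Xcl1 difference was 0.57.

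The members were compared with 5 marker lists over the 8 tumours, 30 relations in all, with exact permutation p-values adjusted over the 30. The measure is Pearson's r between a member's log2(CPM + 1) and the mean log2(CPM + 1) of a list. Of 13 NK markers tested, 10 were called higher in allografts than in cultured Panc02 and 2, Eomes and Styk1, lower. The 14 NK markers summed to between 34.4 and 79.9 CPM in female and 44.0 and 58.2 CPM in male hosts. In Panc02 alone they summed to 60.0 and 64.2 CPM, so this list does not measure NK cells alone. Of the 30, 7 passed by Pearson's r and 0 by Spearman's rho, where 0 of 30 adjusted p-values were below 0.05. In bulk tumours, fewer cells of a type and less RNA per cell cannot be told apart.

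Ccl4 tracked the NK markers (r = 0.926, exact permutation p = 0.00117, adjusted p = 0.0275; rho = 0.929, p = 0.00223, adjusted p = 0.0643). Without the 2 tumours farthest from the median, female 1 and female 3, r was 0.835. Ccl5 tracked them too (r = 0.878, exact permutation p = 0.00481, adjusted p = 0.0281; rho = 0.881, p = 0.00724, adjusted p = 0.0643; r = 0.813 without those 2). Ccl5 also tracked the T cell markers (r = 0.873, exact permutation p = 0.00563, adjusted p = 0.0281; rho = 0.810, p = 0.0218, adjusted p = 0.0726), and r was 0.880 without female 1 and female 2. Xcr1 tracked the cDC1 markers (r = 0.910, exact permutation p = 0.0034, adjusted p = 0.0275; rho = 0.786, p = 0.0279, adjusted p = 0.0838). Without female 1 and female 3 its r was 0.624, so part of that relation rests on those 2 tumours. Cultured Panc02 also had reads for 9 of the 10 cDC1 markers, which summed to 167 and 169 CPM there. In female hosts the 10 summed to between 187 and 336 CPM, and in male hosts to between 212 and 278.5 CPM. Against Panc02, 9 were called higher in allografts and 1, Cadm1, lower, so this list does not measure cDC1 alone.

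The other 3 relations that passed by Pearson's r were those of Xcr1 with the NK markers (r = 0.887), Ccl4 with the cDC1 markers (r = 0.864) and Ccl5 with the cDC1 markers (r = 0.813). Their exact permutation p-values were 0.00347, 0.00367 and 0.0111 (adjusted 0.0275, 0.0275 and 0.0477). Their rho values were 0.810, 0.857 and 0.857, with permutation p-values of 0.0218, 0.0107 and 0.0107 (adjusted 0.0726, 0.0643 and 0.0643). Without female 1 and female 3, r was 0.710, 0.755 and 0.860. Xcl1 did not pass with any list. Its largest r was 0.803, with the cDC1 markers (exact permutation p = 0.018, adjusted p = 0.0652; rho = 0.810, p = 0.0218, adjusted p = 0.0726), and 0.398 without female 1 and female 3. With the macrophage and monocyte markers r was 0.771 (exact permutation p = 0.0217, adjusted p = 0.0652; rho = 0.714, p = 0.0576, adjusted p = 0.123; r = 0.291 without those 2). Its r of 0.766 with the NK markers (exact permutation p = 0.0202, adjusted p = 0.0652; rho = 0.738, p = 0.0458, adjusted p = 0.115) was 0.345 without the same 2 tumours. Ccr1 passed with no list; its largest r was 0.493 with the neutrophil markers (exact permutation p = 0.207, adjusted p = 0.327; rho = 0.714, p = 0.0576, adjusted p = 0.123), and 0.815 without female 2 and female 3.

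NK RNA was scarce in the tumours. Ncr1 measured between 0.153 and 2.25 CPM in the 8 tumours, against 393 to 457 CPM in monocultured NK cells. Cd3e, a subunit of the T cell receptor complex, measured between 6.09 and 15.2 CPM. Several NK markers, such as Klrk1, Klrd1, Prf1 and Gzma, are also made by T cells, and the sources of these chemokines in tumours were not tested. Female tumour 3 also stood apart in B cell markers, at 351 summed CPM against 20.7 to 52.7 CPM in the other tumours.

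**Figure D5:**
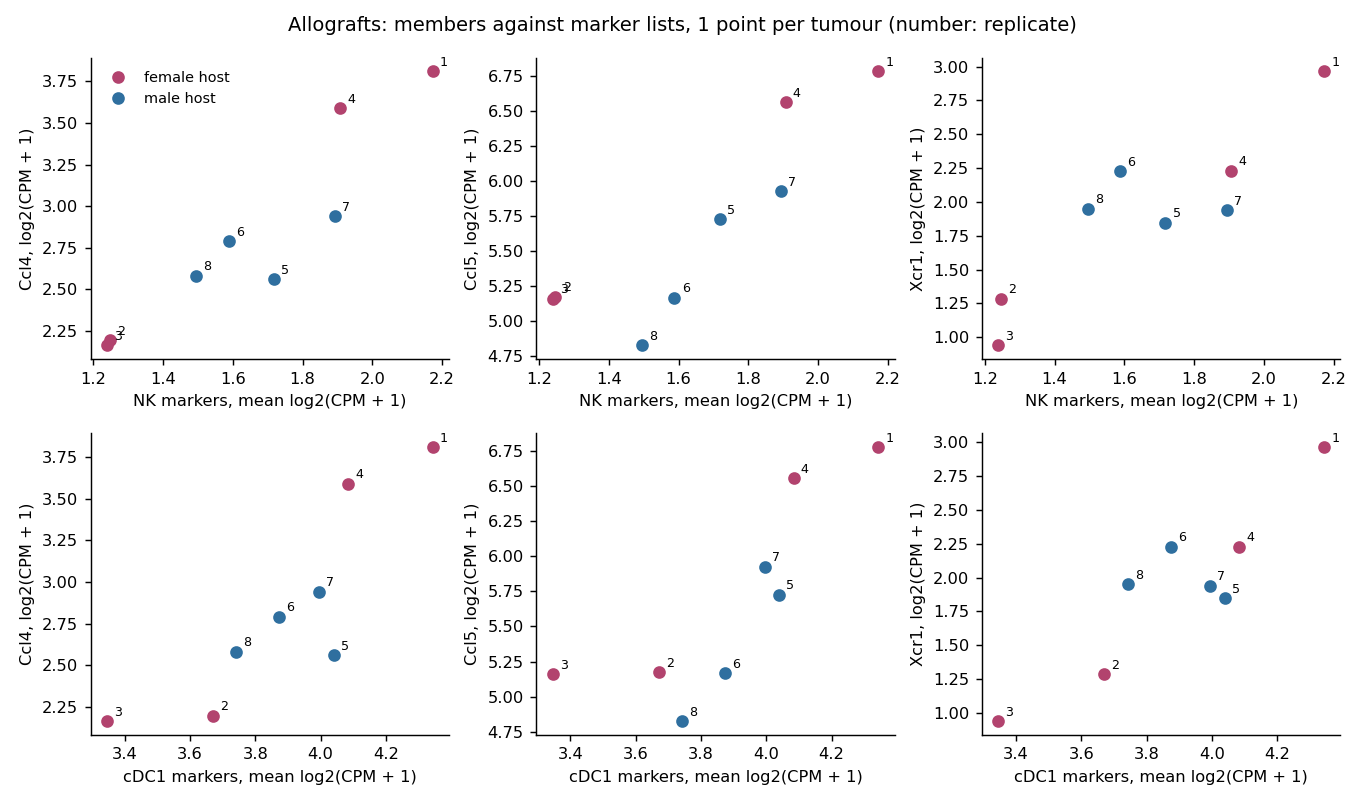
Ccl4, Ccl5 and Xcr1 in the 8 allografts, log2(CPM + 1) on the vertical axes, against the mean log2(CPM + 1) of NK markers (upper row) and cDC1 markers (lower row), with a numbered point for each tumour. Female tumours 1 and 4 are at the upper right for Ccl4 and Ccl5, and for Xcr1 with the cDC1 markers female tumours 1 and 3 hold both ends of a relation with r = 0.910.

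By the same ranking over the 8 allografts, the 5 genes closest to Ccl4 were Serpina3f, Gzmc, Nkg7, Calhm6 and Pla2g16, with r between 0.957 and 0.979. Gzmc and Nkg7 belong to the granules of killer lymphocytes. Those closest to Xcr1 were Sp140, Cxcl10, Cxcl9, Xrcc4 and Ly6e (r of 0.959 to 0.972). Cxcl9 and Cxcl10 are chemokines induced by interferon. The closest to Xcl1 were Lgi4, Psme2b, Bst2, Psme2 and Serpina3g, and to Ccl5 Arrdc4, Tmem51, Tmem35b, Sp100 and Slc31a2. For Ccl3 they were Mrm1, Hspa1b, Mtrf1, Auh and Lysmd2, and for Ccr1 Pop1, Cpsf4, Gmeb1, Rexo4 and Tubgcp4. These are the best of 12610 or 12611 genes in 8 tumours, given with no p.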

How the data were processed

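The deposited tables hold raw read counts per gene, not normalized, for 22 libraries. The submitters' processing notes name HISAT2 2.2.1, featureCounts 2.0.6, cutadapt 4.4 and SAMtools 1.19.2. Per the file headers, reads were counted over exons of Ensembl release 113 (GRCm39) with strand setting 2. Mates of a pair were counted singly and multi-mapping reads at each place, so counting intervals are too narrow. Totals ranged from 13025549 to 46842646 counts.

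From these, CPM and TPM were computed and genes tested with edgeR 4.0.16 (TMM, quasi-likelihood F-test, filterByExpr, Benjamini-Hochberg at 0.05) in R 4.3.3. SE is the size of the log2 fold change divided by √F. The 12 libraries with NK cells shared a fit of 6 group means. Co-cultures were fitted with monocultures on 350 NK-restricted genes, with library size from the 346 that are no members. Allografts were fitted alone for host sex and with Panc02. Methods were tested on simulated data. DESeq2 1.42.0 and the other alternatives are in the closing section. Intervals of log2 differences are the estimate ± the 95% t quantile at the fit's degrees of freedom times SE. Counting intervals and floors (3 counts) cover counting error only.

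Members and lists were chosen with earlier results of these data known. Of each other list, up to 4 genes by smallest adjusted p, or at 50 CPM or more, are named, and for each member the 5 genes of highest r; results for some genes are not reported here. Clec9a, Ncr1 and Cd3e stand for their cell types. Deviations of same-numbered libraries correlated at 0.33 for fresh against monocultured male cells, and at no more than 0.06 in the other pairs. Numbers were not used as pairs, because not every pair exceeded 0.1.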

Additional observations from a re-analysis of the deposited data

Results flagged for a closer look

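In the 12 sets of 4 allografts (6 genes in each host sex), a tumour was set apart where its gap to the nearest other exceeded 0.829 of the range, the limit that chance passes in about 1 of 20 sets. Ccr1 was set apart in female tumour 4, at 23.3 CPM with the nearest tumour at 36.1 CPM. That tumour was also among the 2 highest for Ccl3, Ccl4 and Ccl5. Ccl3 was set apart in male tumour 5, at 3.13 CPM with the nearest at 5.65 CPM, and that tumour had the highest Ccr1 level of the 8, 48.0 CPM.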

How the results depend on the processing

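Of 806 alternative values for the members, 750 kept direction and side of the threshold, 9 lost a call, 15 gained one and 32 changed sign. The scale by Xist and Ddx3y was chosen after seeing the data. The scale by NK markers used all 14, of which 6 had reads in Panc02 alone. In no case was the cause tested.

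For fresh sex differences, fitting only the groups compared called 1340 genes in place of 2149; Xcl1 was -0.089 without filter and -0.050 with halved counts. Ccl3 passed at -0.54 (DESeq2), -0.65 (no filter) and -0.61 (halved counts). In monoculture 23 genes became 77 (DESeq2), 207 (no filter) and 12 (only the groups compared). Ccl3 passed at -0.63 with DESeq2. Without filter Xcl1 (-0.54), Ccl3 (-0.73) and Ccl4 (-0.64) passed. The culture interaction called 546 genes, 1487 with DESeq2, and 39.4% of its calls were higher, against 61.1% under median-ratio scaling. On the NK scale 275 genes were called with a restriction of 10 CPM and 1%, in place of 159, and Ccl5 was -0.22 with NK markers and -0.23 with Xist and Ddx3y as the scale. Between the sexes in co-culture DESeq2 called 16 genes in place of 9 and Ccl5 at -0.67; with NK markers as the scale Ccl3 was 0.011 and Ccl4 0.10. The co-culture interaction under Xist and Ddx3y was -0.022 (Xcl1), -0.0035 (Ccl3) and -0.0056 (Ccl4). Host sex called 678 genes with DESeq2 and 14 without filter, in place of 3.

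Leaving out each library gave 569 to 3421 genes for fresh sex, 17 to 71 for monoculture sex, 180 to 935 for the culture interaction, 5 to 18 for co-culture sex, 1527 to 3530 for co-culture against Panc02 and 0 to 4 for host sex. Ccr1 ranged from -2.31 to 1.62 against fresh. Fresh sex differences ranged from -0.12 to 0.17 (Xcl1), -0.76 to -0.31 (Ccl3), -0.92 to -0.45 (Ccl4), -0.92 to 0.80 (Xcr1) and -7.60 to -2.70 (Ccr1). Monoculture ones were -0.97 to -0.50 (Ccl3) and -4.63 to 0 (Xcr1). The culture interaction ranged from -0.36 to 0.087 (Ccl3), -0.13 to 0.33 (Ccl4), -4.58 to 0.29 (Xcr1) and -2.26 to 5.56 (Ccr1). On the NK scale Ccl5 ranged from -0.042 to 0.14 (7 fits; in 1 it failed the restriction), and between the sexes Xcl1 from -0.16 to 0.19 and Ccl5 from -0.80 to -0.45. Host differences were -0.20 to 0.46 (Ccl3) and -0.50 to 0.47 (Xcr1).

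The sample number as a replicate block gave 338 genes for the culture interaction and 1 in place of 0 for the co-culture interaction, and changed no member's call. Correlations of same-numbered deviations were 0.04, 0.04 and -0.02 (female) and 0.33, 0.05 and 0.06 (male) over 10231 genes.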

Other observations

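Counts of Xcr1 and Ccr1 limit what can be said of NK cells in culture. In monoculture Xcr1 had 0 reads in female and 4 in male libraries, where 3 reads over the group are 0.0591 and 0.0338 CPM. Irf8, a transcription factor of dendritic cells that NK cells also make, was higher in co-culture on the NK scale by 2.18 ± 0.08 (adjusted p = 9.36e-13, edgeR). Clec9a had no read in any co-culture. Which cells made the Irf8 reads in co-culture, NK or Panc02 cells, was not tested. In allografts Xcr1 and Clec9a were both detected in every tumour, Clec9a between 0.574 and 3.77 CPM. Xcl1 and Xcr1 were both detected in the 4 fresh NK libraries and in all 8 tumours.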
